A study of Mus musculus with 4 samples.

Results

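Glycolysis splits glucose into pyruvate in the cytosol, and lactate dehydrogenase turns pyruvate into lactate. Inside the mitochondrion the pyruvate dehydrogenase complex turns pyruvate into acetyl-CoA. The pentose phosphate pathway branches off at glucose 6-phosphate and makes NADPH and ribose phosphate, the sugar of nucleotides. T cells that are activated and divide are known for a high use of both pathways, and most steps are served by several genes whose enzymes differ in regulation and in the tissues where they prevail. The 40 genes described here encode the transporters, enzymes and kinases of these steps. They were taken from a fixed list of symbols, and all 40 were found among the 50600 genes of the files.

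The cells were primary T cells of the mouse strain C57BL/6NJ, in 1 group of 4 biological replicates with no treatment, control group or genotype in the labels. The replicates share a donor identifier, sex was not collected and age is recorded as unknown, so p-values cover the spread between these samples, which may be technical. Names in the file headers add Th0, activated and 48 h, and the labels link a protocol for CD4 T cell differentiation. Libraries held 45110199 to 127755788 counts, and every pair of replicates differed by more than counting noise (chi-square per degree of freedom 7.78 to 24.2). The 7 T cell markers summed to 4545 to 4712 TPM per library and the CD8 markers to 20.5 to 24.4 TPM, nearly all of it Cd8b1 (22.3 TPM ± 1.62), as Cd8a stood at 0.263 TPM ± 0.133 (SD, n = 4). Summed levels were 3.05 to 5.37 TPM for 5 B cell markers, 2.51 to 3.55 for 6 myeloid, 0.0211 to 0.0650 for 3 NK cell, 0 to 0.221 for 4 erythroid, 1.51 to 2.60 for 4 skeletal muscle and 1.09 to 1.92 for 4 neural markers. Of the defining markers of these other cell types, Lyz2, S100a8, Hbb-bs, Alas2 and Myh4 had no count. Adgre1, a myeloid marker, stood at 2.75 TPM ± 0.348 and Cd79b, a B cell marker, at 2.02 ± 0.849. Both lay above 1 TPM (adjusted p = 4.97e-05 and 0.012, limma). RNA of whole cell populations was measured, so fewer cells that express a gene and less of its RNA per cell cannot be told apart.

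Levels are given in TPM, the counts of a gene divided by the length of its merged exons and scaled to the same sum in each library. This allows genes of different length to be compared. The 40 genes together made up 1.69% ± 0.00676 of all TPM (SD, n = 4). A gene's level was tested against 1 TPM with limma over all 23365 genes with a count, where 50.5% lay above and 39.6% below. By this test 38 of the 40 genes lay above 1 TPM, Hk3 lay below, and Pdk4 had no count in any library. Of the 15076 protein-coding genes with a count 10388 lay above. The median over the 40 genes was 136 TPM, against 14.2 TPM over the 15076 protein-coding genes with a count and 1.80 TPM over all genes tested. There were 6 members at 1000 TPM or more, a band that holds 0.597% of the protein-coding genes, 17 at 100 to 1000 TPM (13.6%), 9 at 10 to 100 TPM (40.2%) and 6 at 1 to 10 TPM (16.8%).

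**Figure D1:**
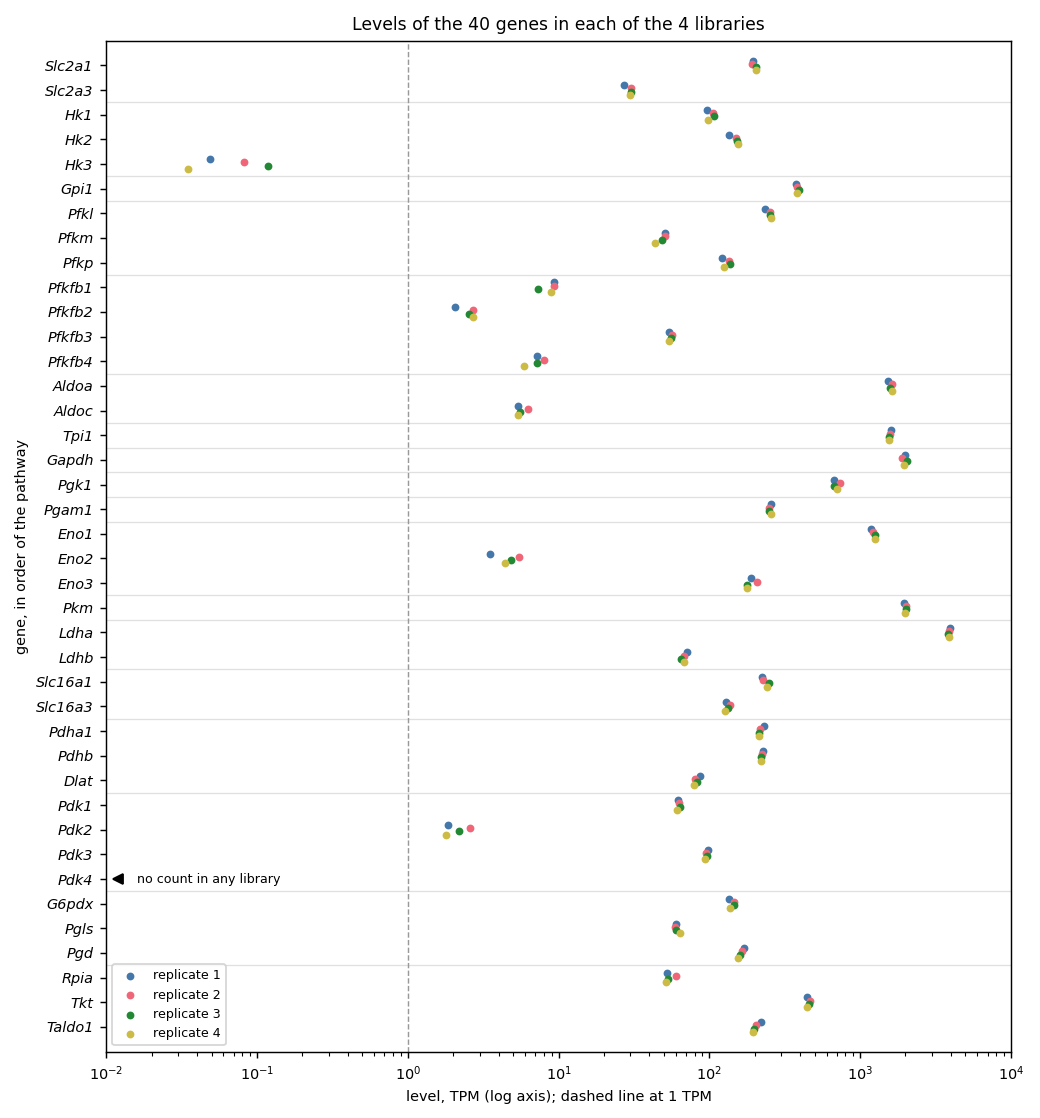
Each point is the level of 1 gene in 1 library, in TPM on a log axis, with genes in the order of the pathway and grey lines between reaction steps. The 6 genes at 1000 TPM or more are Ldha, Pkm, Gapdh, Aldoa, Tpi1 and Eno1, while Hk3 lies below the dashed line at 1 TPM and Pdk4 had no count.

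The order of levels was led by Ldha, followed by Pkm and Gapdh, then Aldoa and Tpi1, then Eno1 and Pgk1. These 7 genes held 76.3% ± 0.195 of the summed TPM of the 40 (SD, n = 4). Neighbours in the order often could not be separated: for 20 of the 39 adjacent pairs the ranges over the 4 libraries overlapped. Pkm and Gapdh overlapped, as did Aldoa and Tpi1, and each gene from Pgam1 at 252 TPM down to Slc2a1 at 198 TPM overlapped with the next. Ldha stood apart from Pkm, and Eno1 and Pgk1 each stood apart from both neighbours. This order is that of merged exon lengths. With the longest transcripts Ldha still led at 5138 TPM, but Eno1 at 2364 TPM lay above Tpi1 at 1963 TPM. Pgk1 then stood at 623 TPM ± 29.1, below Tkt at 669 TPM and beside Gpi1 at 625 TPM ± 15.0.

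Lactate dehydrogenase, which interconverts pyruvate and lactate, is a tetramer of the products of Ldha and Ldhb. The promoters of these genes are shown because this step combined the highest level with a wide gap between its isoforms, together with that of Hk2, the inducible hexokinase gene. They are the 250 bases before the annotated start, from RefSeq (GRCm38.p6, the assembly also called mm10), written 5′ to 3′ on the strand of the gene, with each match to ACGTG on either strand in capitals. ACGTG is one form of the core bound by hypoxia-inducible factors, and CACGTG, which contains it, is the E-box bound by MYC and related factors. The first window, Ldha, is chr7:46845554-46845803 on the plus strand and lies within the span of the gene as the files give it, outside its exons. Ldhb is chr6:142507958-142508207 and Hk2 chr6:82774455-82774704, both on the minus strand.
Ldha: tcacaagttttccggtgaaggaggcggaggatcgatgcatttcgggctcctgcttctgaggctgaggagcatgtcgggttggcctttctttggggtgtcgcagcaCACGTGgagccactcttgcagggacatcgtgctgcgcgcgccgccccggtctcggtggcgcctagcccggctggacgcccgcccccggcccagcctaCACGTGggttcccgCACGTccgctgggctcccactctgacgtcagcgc
Ldhb: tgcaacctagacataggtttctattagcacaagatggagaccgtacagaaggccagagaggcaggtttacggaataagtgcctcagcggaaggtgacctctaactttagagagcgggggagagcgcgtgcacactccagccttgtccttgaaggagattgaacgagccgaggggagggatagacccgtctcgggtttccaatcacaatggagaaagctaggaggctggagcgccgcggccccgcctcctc
Hk2: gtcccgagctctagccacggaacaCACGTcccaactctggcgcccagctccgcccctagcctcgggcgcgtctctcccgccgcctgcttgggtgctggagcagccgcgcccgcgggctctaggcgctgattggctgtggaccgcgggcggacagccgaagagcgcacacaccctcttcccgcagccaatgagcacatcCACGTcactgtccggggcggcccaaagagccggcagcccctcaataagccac
The Ldha window holds 2 CACGTG, and 5 matches to ACGTG when both strands are counted, as each CACGTG reads as ACGTG on either strand. A second annotated start of Ldha has no match, the Ldhb window has none and that of Hk2 has 2. Hk1 has no match in any of its windows. Among genes of high level Aldoa and Pkm hold ACGTG, while Gapdh, Tpi1 and Eno1 do not. Among genes of low level Hk3, Pdk2 and Pfkfb2 hold it, while Pdk4, Aldoc and Eno2 do not. Whether a match goes with level was not tested. Of the 39 members with a promoter window in the table, 16 hold ACGTG in at least 1 window (41.0%), against 18.5% of the 27025 genes with a window there. For CACGTG the numbers are 6 members (15.4%) and 6.9% of genes. Per window, 33.9% of the 59 member windows and 16.6% of all 32851 windows hold ACGTG. Windows of 1 gene can overlap, and a match describes letters, not binding.

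Glucose enters through facilitative transporters. Slc2a1, which encodes GLUT1, the transporter of most dividing cells, stood at 195, 191, 204 and 204 TPM in replicates 1 to 4. Slc2a3, which encodes the high-affinity GLUT3, stood at 27.2, 30.2, 30.4 and 29.8 TPM. The groups of values did not overlap, and Slc2a1 held 87.1% ± 0.563 of the summed TPM of the pair (SD, n = 4). With each gene's longest protein-coding transcript as its length, in place of merged exons, its share was 79.9%. The Slc2a1 gene lies on chromosome 4 (119108711 to 119137983, mm10) and Slc2a3 on chromosome 6 (122727809 to 122801640).

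Hexokinase traps glucose in the cell as glucose 6-phosphate. Hk2, whose product binds mitochondria and which is induced in many growing cells, stood at 134, 151, 153 and 156 TPM, and the widely expressed Hk1 at 96.97, 106, 107 and 98.3 TPM. Hk2 was higher in 4 of 4 libraries by a ratio of 1.46 ± 0.0874 (SD, n = 4), with the lowest Hk2 value above the highest of Hk1. This order rests on the lengths used: with the longest transcripts Hk1 was above Hk2 by 0.34 on the log2 scale (adjusted p = 0.000123, limma), and merged exons span 8532 bases for Hk1 but its longest transcript 4278. Hk3, the form of myeloid cells, had 3, 4, 16 and 2 counts, 25 in all (exact Poisson 95% interval 16.2 to 36.9, counting error only). Its level was 0.0711 TPM ± 0.0372, and the ratio of Hk2 over Hk3 ran from 1292 to 4465 between libraries. So hexokinase transcripts came almost wholly from 2 genes whose order depends on gene length. Hkdc1, a related gene outside the 40, was at 0.00265 TPM ± 0.0053, below 1 TPM by limma (adjusted p = 3.49e-06, n = 4). Adpgk, a kinase that uses ADP in place of ATP, stood at 34.6 TPM ± 0.901, and at 97.6 TPM with the longest transcript as length.

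Gpi1, the isomerase that makes fructose 6-phosphate, stood at 375, 383, 395 and 381 TPM. Phosphofructokinase then commits the sugar to glycolysis as a tetramer of the liver, muscle and platelet types. Pfkl, the liver type, stood at 234, 254, 252 and 255 TPM, Pfkp, the platelet type, at 122, 135, 136 and 126, and Pfkm, the muscle type, at 50.9, 50.8, 48.8 and 43.6. The 3 ranges did not overlap, and the shares of the step were 58.3% ± 1.23, 30.4% ± 0.713 and 11.4% ± 0.941 (SD, n = 4). Pfkl exceeded Pfkp by a ratio of 1.92 ± 0.0785 and Pfkp exceeded Pfkm by 2.68 ± 0.217. With the longest transcripts the order was the same, but Pfkm fell to a share of 6.32%. All 3 types were thus transcribed in these T cells, with the muscle type lowest in every library.

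The Pfkfb genes encode enzymes that make and break the fructose bisphosphate that activates phosphofructokinase, and their kinase and phosphatase activities are balanced differently. Pfkfb3, the form with the strongest kinase activity, stood at 53.9, 56.2, 55.98 and 53.8 TPM and held 74.98% ± 1.28 of the 4 genes' summed TPM (SD, n = 4). Pfkfb1, described first in liver and muscle, stood at 9.33, 9.35, 7.34 and 8.96 TPM. Pfkfb4 stood at 7.25, 8.03, 7.25 and 5.91 TPM and Pfkfb2 at 2.06, 2.72, 2.53 and 2.69. Pfkfb3 lay above the other three in every library, by ratios of 6.35 ± 0.857 over Pfkfb1, 7.81 ± 0.907 over Pfkfb4 and 22.2 ± 2.73 over Pfkfb2. Pfkfb1 and Pfkfb4 differed too little for a call: Pfkfb1 was higher in 4 of 4 libraries, but the log2 ratio was 0.30 ± 0.24 (adjusted p = 0.0701, limma, n = 4) and their ranges overlapped. The adjusted p for that pair was 0.0121 without replicate 3, 0.0414 on the genes that pass an expression filter, 0.0367 after thinning all libraries to the shallowest and 1.89e-06 with the longest transcripts. For Pfkfb2, 17.4% of the exon bases are shared with another gene on the same strand, so its count is uncertain.

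**Figure D2:**
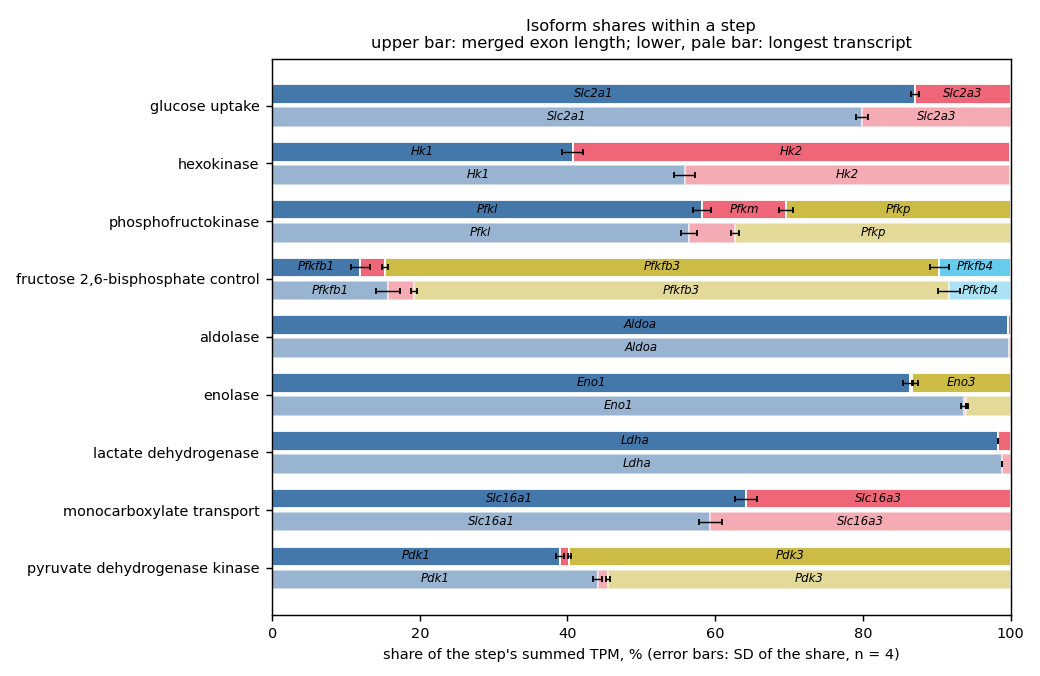
Bars divide the summed TPM of each step among its genes, in percent (mean of 4 libraries; error bars are the SD of the share to their left), with merged exon length above and the longest transcript as length in the pale bar below. Ldha and Aldoa take nearly all of their steps under both lengths, whereas the larger share of hexokinase passes from Hk2 to Hk1.

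Aldolase cleaves the sugar into a pair of triose phosphates. Aldoa, the muscle and general form, stood at 1537, 1639, 1580 and 1631 TPM, and Aldoc, known from brain, at 5.36, 6.25, 5.59 and 5.41. Aldoa exceeded Aldoc by a ratio of 283 ± 16.2 (SD, n = 4). Tpi1, the isomerase that interconverts the triose phosphates, stood at 1598, 1590, 1556 and 1552 TPM, within the range of Aldoa. With merged exon lengths the lower part of the pathway thus started with a pair of genes at closely similar levels. This similarity depends on the lengths used: with the longest transcripts Aldoa stood at 2823 TPM and Tpi1 at 1963 TPM.

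Gapdh, the dehydrogenase that yields NADH, stood at 1999.6, 1909, 2033 and 1949 TPM. Its merged exons span 4133 bases and its longest transcript 1420, so with the latter its level was 4180 TPM, above Pkm at 2980. The annotation holds 71 other genes with transcripts at least 95% identical to Gapdh over at least 50% of its length, the most of any member, and their counts in the files summed to 1.555% of the counts of Gapdh. Pgk1, the first kinase of the pathway to return ATP, stood at 674, 738, 669 and 702 TPM, and its testis form Pgk2 had no count. For Pgk1, 2 other genes have transcripts 100% identical over 68.8% and 68.6% of its length. Reads from these stretches may map to several places, so its level is uncertain. The counts of these genes came to 0.098% of those of Pgk1. Such counts, for Gapdh as for Pgk1, do not measure the reads that the genes share. Pgam1, the mutase, stood at 256, 250.4, 247 and 256 TPM, with the muscle form Pgam2 at 0.0382 TPM ± 0.0764 (SD, n = 4), 2 counts in replicate 4. Pgam1 lay below its neighbours in the pathway, Pgk1 and Eno1, in every library.

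Enolase makes phosphoenolpyruvate. Eno1, the general form, stood at 1174, 1222, 1248 and 1250.0 TPM, and Eno3, known as the muscle form, at 190, 206, 177 and 179. Eno2, known as the neuronal form, stood at 3.49, 5.50, 4.81 and 4.41 TPM. The 3 ranges did not overlap, and Eno3 held 13.3% ± 1.00 of the enolase total (SD, n = 4), at a ratio of 42.3 ± 8.22 to Eno2. With the longest transcripts the share of Eno3 was 6.04%. The 4 skeletal muscle markers summed to at most 2.60 TPM beside 177 TPM or more of Eno3 in each library. Tnnt3 stood at 1.08 TPM ± 0.524, Ckm at 0.490 ± 0.293 and Acta1 at 0.338 ± 0.172, each with counts in all 4 libraries, and Myh4 had no count. Their part in the level of Eno3 was not tested. For Eno1, 3 other genes have transcripts at least 95% identical over at least 50% of its length, among them Eno1b at 99.5%, and the counting command in the headers sets no option for reads that map to several places. The counts of these 3 genes came to 0.185% of those of Eno1, which does not measure the reads that they share with it.

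Pyruvate kinase closes glycolysis. Pkm, whose spliced products are the M1 and M2 enzymes, stood at 1957, 2001, 2008 and 1997 TPM, and a count per gene does not separate the products. Of its exon bases, 15.3% are shared with another annotated gene on the same strand. For Pkm, 1 other gene has a transcript 98.4% identical over 65.5% of its length, with counts at 0.222% of those of Pkm. Pklr, the liver and red cell gene, had 1 count in 4 libraries. Ldha stood at 3938, 3858, 3817 and 3866 TPM and Ldhb at 70.6, 67.9, 65.3 and 68.2, so that Ldha, whose subunit favours lactate formation, held 98.3% ± 0.0331 of the step (SD, n = 4). Their ratio, 56.9 ± 1.12, had the smallest relative spread of the ratios in which the first gene was higher, and Ldhc, the testis form, had counts in replicate 3 alone. With its promoter shown above, Ldha was the 11th most abundant protein-coding gene of these cells.

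Lactate and pyruvate cross membranes through monocarboxylate transporters. Slc16a1, which encodes MCT1, stood at 225, 226, 248 and 240.2 TPM and Slc16a3, which encodes MCT4, an exporter of lactate from glycolytic cells, at 128, 137, 132 and 127. Slc16a1 was higher in 4 of 4 libraries by a ratio of 1.79 ± 0.112 (SD, n = 4), and the ranges did not overlap. Bsg, whose product basigin is the chaperone of both, stood at 871 TPM ± 23.8 and its relative Emb at 215 TPM ± 5.86. Slc16a7, the MCT2 gene, lay below 1 TPM at 0.119 TPM ± 0.0308 (adjusted p = 8.02e-05, limma), and Slc16a8 had no count.

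Pyruvate dehydrogenase is built of the E1 subunits of Pdha1 and Pdhb and the E2 core of Dlat. Pdha1 stood at 231, 215, 213 and 212 TPM and Pdhb at 227, 223, 221 and 221, and no difference was called (-0.03 ± 0.04 on the log2 scale, adjusted p = 0.299, limma, n = 4). With the longest transcripts as lengths Pdha1 was higher by 0.38 on the log2 scale (adjusted p = 4.6e-06, limma). Dlat stood at 86.3, 80.4, 83.3 and 79.6 TPM, below both in every library, with Pdha1 over Dlat at 2.65 ± 0.0556. The E3 subunit gene Dld stood at 141 TPM ± 2.85 and the binding protein gene Pdhx at 36.3 TPM ± 1.60. The carrier genes that bring pyruvate into the mitochondrion, Mpc1 and Mpc2, stood at 60.5 TPM ± 4.99 and 12.8 TPM ± 1.15, and at 95.5 and 66.7 TPM with the longest transcripts.

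Pyruvate dehydrogenase kinases switch the complex off by phosphorylation. Pdk3 stood at 97.9, 94.4, 95.9 and 93.8 TPM and Pdk1, a known target of hypoxia-inducible factors, at 61.6, 62.8, 63.5 and 61.2. Pdk3 exceeded Pdk1 in 4 of 4 libraries by a ratio of 1.53 ± 0.0399 (SD, n = 4), and with the longest transcripts the log2 ratio of Pdk1 over Pdk3 was -0.31. Pdk2 stood at 1.84, 2.59, 2.18 and 1.81 TPM. Pdk4, which is induced by fasting and fatty acids in muscle and liver, had 0 counts. A limit of 3 counts per library was chosen for it, not measured, which equals 0.0512, 0.0648, 0.0232 and 0.0548 TPM. Against that limit in each library, Pdk3 was at least 1457-fold higher, Pdk1 at least 969.8-fold and Pdk2 at least 32.9-fold. The phosphatases that reverse the kinases, Pdp2 and Pdp1, stood at 31.02 TPM ± 0.934 and 9.14 TPM ± 0.347, with the regulatory subunit gene Pdpr at 28.8 TPM ± 1.14.

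In the oxidative arm of the pentose phosphate pathway, G6pdx encodes the dehydrogenase that sets the entry of glucose 6-phosphate. G6pdx stood at 135, 145, 146 and 137 TPM, the second NADPH-forming gene Pgd at 171, 165, 160.2 and 154, and the lactonase gene Pgls at 60.1, 59.4, 59.99 and 63.7. Pgd exceeded G6pdx in 4 of 4 libraries by a ratio of 1.16 ± 0.0731 (SD, n = 4; adjusted p = 0.00222, limma). With the longest transcripts the log2 ratio of G6pdx over Pgd moved from -0.21 to -1.53, and the levels became 119 TPM for G6pdx, 344 for Pgd and 157 for Pgls. Of the exon bases of Pgls, 20.6% are shared with another gene on the same strand. H6pd, the enzyme of the endoplasmic reticulum, stood at 23.1 TPM ± 2.54, and G6pd2, a retrogene of G6pdx, at 0.00579 TPM ± 0.0116.

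The non-oxidative arm rearranges pentoses and can return them to glycolysis. Tkt, the transketolase gene, stood at 446, 466, 455 and 445 TPM, Taldo1, the transaldolase gene, at 222, 206, 198 and 194, and the isomerase gene Rpia at 52.5, 59.9, 53.2 and 51.9. Tkt led in every library, exceeding Taldo1 by 2.22 ± 0.139 (SD, n = 4), and held 63.6% ± 1.18 of the arm's summed TPM. With the longest transcripts the levels were 669 TPM for Tkt, 238 for Taldo1 and 116 for Rpia, whose share moved from 7.63% to 11.3%. The epimerase gene Rpe stood at 73.0 TPM ± 3.65, and the transketolase-like genes Tktl1 and Tktl2 had no count. The 3 listed genes of each arm summed to 712 TPM ± 17.6 for the non-oxidative and 364 TPM ± 6.70 for the oxidative arm. These sums depend on which genes are listed, and Rpe is not in them. With the longest transcripts the sums were 1022 TPM ± 25.7 and 620.2 TPM ± 9.90.

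Summed by step, lactate dehydrogenase led at 3938 TPM ± 52.4, and the steps from aldolase to pyruvate kinase lay between 1416 TPM (enolase) and 1991 TPM (pyruvate kinase), except for phosphoglycerate kinase at 696 TPM ± 31.9 and phosphoglycerate mutase at 252 TPM ± 4.42 (SD, n = 4). The upper steps were lower: 228 TPM ± 7.13 for glucose uptake, 250.4 for hexokinase, 384 ± 8.20 for the isomerase and 427 ± 15.5 for phosphofructokinase. Pyruvate dehydrogenase summed to 523 TPM ± 14.3 over its 3 genes and its kinases to 160 TPM ± 2.19. The level of phosphoglycerate kinase is uncertain, as transcripts of other genes match much of Pgk1. For 7 of the 17 neighbouring steps in this order the ranges overlapped, among them pyruvate kinase with glyceraldehyde phosphate dehydrogenase, and phosphoglycerate mutase with hexokinase. With the longest transcripts as lengths, glyceraldehyde phosphate dehydrogenase rose to 4180 TPM and the second place, aldolase to 2828, enolase to 2521 and the oxidative pentose arm to 620.2 TPM.

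**Figure D3:**
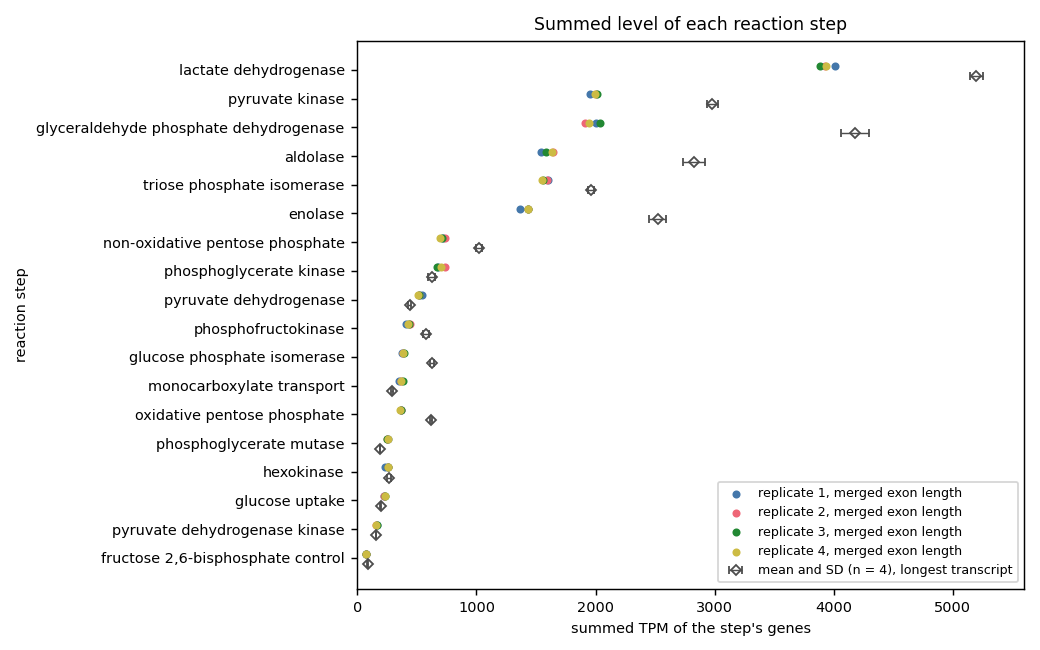
Points give the summed TPM of the genes of each reaction step in each library with merged exon length, and open diamonds the mean and SD (n = 4) with the longest transcript as length. Lactate dehydrogenase is highest under both, and the largest shift between the 2 lengths is that of glyceraldehyde phosphate dehydrogenase, from 1973 to 4180 TPM.

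Of 30 pairs of genes within steps, 27 could be tested, as those with Pdk4 could not. For each first gene the difference to every other gene was fitted with limma on log2(TPM + 0.1), and 25 of the 27 pairs were called at an adjusted p below 0.05, the first gene being higher in 16 and the second in 9. In the same fits 98.3% of all comparisons of a gene with a first gene were called, so that a call by itself sets these pairs apart in no way and the sizes are what describes them. All 4 libraries pointed one way in 26 of the 27 pairs, the exception being Pdha1 and Pdhb. A sign-flip test over 4 libraries cannot give a two-sided exact p below 0.125.

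**Figure D4:**
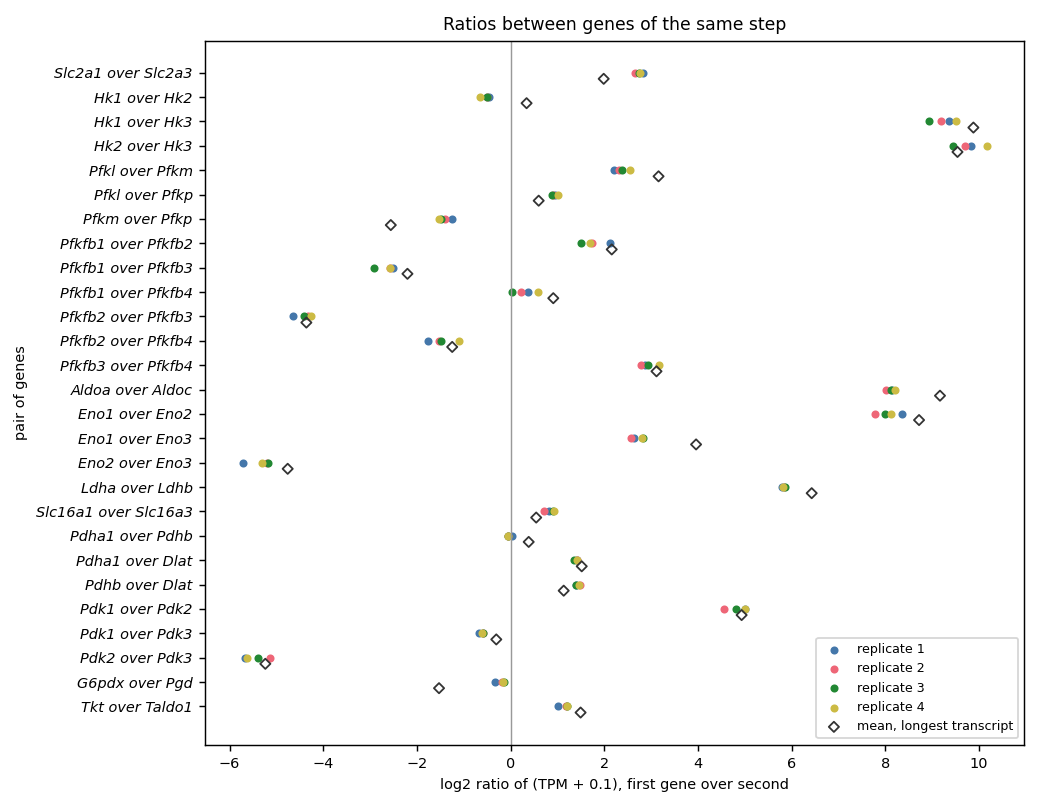
Each point is the log2 ratio of (TPM + 0.1) between 2 genes of a step in 1 library, and each diamond the mean with the longest transcript as length. Points of a pair lie close together, while diamonds cross the line at 0 for Hk1 over Hk2 and for Pdha1 over Pdhb.

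Levels varied little between the replicates. Of the 40 genes 38 passed the expression filter (all but Hk3 and Pdk4), and none of these was called variable by edgeR's goodness-of-fit test, nor had any an unadjusted p below 0.05. Over all 13279 genes tested 0.422% were called, so that no call among 38 is close to the background. The coefficient of variation was lowest for Pkm at 1.16%, Ldha at 1.30% and Pdhb at 1.38%, and highest for Eno2 at 18.4%, Pdk2 at 17.4% and Pfkfb4 at 12.4%. Counting noise alone would give 0.239% for Pkm and 5.22% for Eno2. Beside genes of the same level, all 6 members at 1000 TPM or more lay under the median coefficient of 3.88% of 94 genes, whereas 4 of 14 members at 100 to 300 TPM lay under the median of 3.85% there. Among the more abundant members Eno3 at 7.11% and Pfkm at 7.05% varied most. Across 39 genes with a count, replicate 4 held the lowest value for 15 and replicate 1 for 14, against 3 for replicate 2 and 7 for replicate 3.

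**Figure D5:**
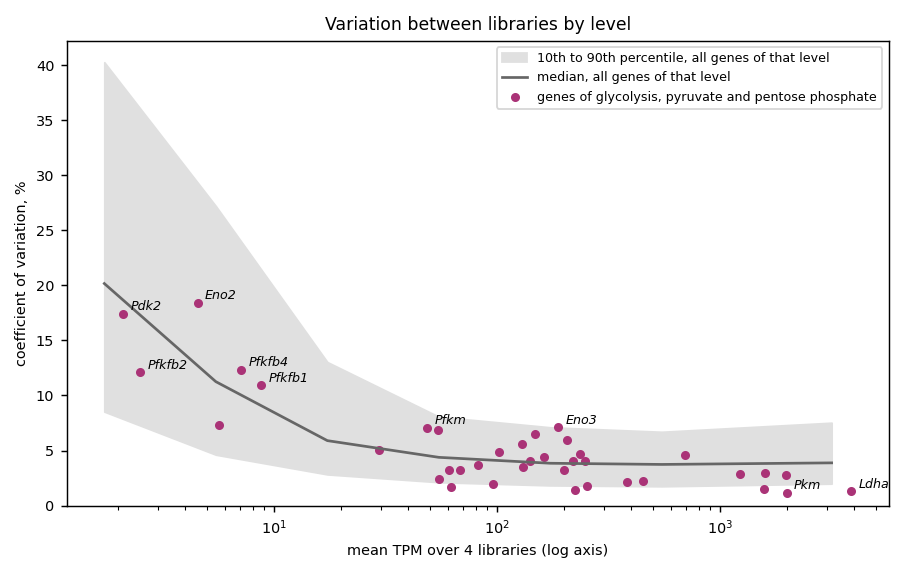
Each point is the coefficient of variation of TPM over 4 libraries (percent) of 1 of the 38 filtered genes against its mean TPM (log axis); the grey line and band give the median and the 10th to 90th percentile of all filtered genes in 7 bands of level. Ldha, Pkm, Tpi1, Pdhb, Pgam1, Pdk1 and Pdk3 lie under the 10th percentile of their band of level, and Eno3 lies at the 90th.

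Among 50 genes of the same pathways outside the 40, 27 lay above 1 TPM and 9 had no count. Of all 23365 genes with a count 50.5% lay above, and of the 15076 protein-coding genes with a count 10388 did. Of 23 other isoforms of these steps 6 lay above 1 TPM, 9 below, 1 (Slc2a4, the insulin-responsive transporter gene, at 0.836 TPM ± 0.175) was undecided by limma and 7 had no count; the median was 0.0382 TPM. The 6 were Adpgk, H6pd, the transporter genes Slc2a6 (17.6 TPM ± 0.879), Slc2a8 (16.3 ± 1.51) and Slc2a9 (2.95 ± 0.453), and Ldhd (2.15 ± 0.354, SD, n = 4), a dehydrogenase of D-lactate. All 15 partners and regulators lay above, with a median of 36.3 TPM. Of 12 genes of glucose formation and side branches 6 lay above, 4 below and 2 had no count. The liver-type genes Pck1, Fbp1 and G6pc lay below at 0.0133, 0.01598 and 0.0113 TPM, while the mitochondrial Pck2 stood at 88.3 TPM ± 12.8 and the ubiquitous phosphatase gene G6pc3 at 80.1 TPM ± 4.52. In Pck2 replicate 1 was lowest at 73.3 TPM and replicate 2 highest at 100.4 TPM, and Pck2 was the one gene of these lists called variable between libraries among those that passed the expression filter (adjusted p = 0.00324, edgeR's goodness-of-fit test). Gpd2, the mitochondrial enzyme of the glycerol phosphate shuttle, stood at 52.1 TPM ± 2.16, and its cytosolic partner Gpd1 below 1 TPM at 0.517 ± 0.197 (adjusted p = 0.0283, limma).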

How the data were processed

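RNA from 4 libraries of mouse T cells, the only group of the labels, was measured. The authors deposited raw counts per gene; each is a number of read pairs on exons of the GENCODE M13 annotation, assigned by featureCounts 1.4.6-p4 with strand option 2, per the file headers. The labels give mm10 as assembly. The headers' command sets no option for reads that map to several places or genes. No source used here gives the trimming or the version of STAR. The deposited lengths (other values) are merged exons. Symbols came from GENCODE M21, for 50376 of 50600 genes.

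TPM was computed from the counts and lengths. Levels and within-library differences of log2(TPM + 0.1) were fitted with limma 3.58.1 over all 23365 genes with a count (intercept, empirical Bayes with trend, Benjamini-Hochberg). As nearly all genes differ from a given gene, adjusted p-values of pairs lie close to unadjusted ones. Variation was tested with edgeR 4.0.16 (filterByExpr, TMM factors 0.996 to 1.00, goodness of fit at the trended dispersion); DESeq2 1.42.0 was an alternative. Near copies were sought with blastn 2.17.0+, using R 4.3.3 and python 3.11.15. Scripts were tested on simulated data.

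The members, lists and pairs were chosen with earlier results of these data known. All 40 members could be named; from the other lists, the 4 highest and those with no count or below 1 TPM; Slc2a4, Slc2a9, Ldhd, Mpc1, Mpc2, Pdhx, Rpe, Pdp1, Pdp2 and Pdpr were named after their values were seen. RefSeq proteins were not used here. Some genes of the other lists are not reported by name here.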

Additional observations from a re-analysis of the deposited data

Results flagged for a closer look

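A sample was marked where its gap to the nearest other library made up more of the range of the 4 than Dixon's 95% critical value. Over 79 sets of 4 values 10 were marked, and chance marks about 1 in 20 such sets; sets that share a gene are not independent. Among single genes replicate 1 was low for Slc2a3 (gap over range 0.836, 27.2 TPM) and Pfkl (0.861, 234 TPM) and high for Pdha1 (0.836, 231 TPM). Replicate 4 was high for Pgls (0.846, 63.7 TPM) and replicate 2 for Rpia (0.845, 59.9 TPM). The summed enolase level was low in replicate 1 (0.948, 1368 TPM against 1430 to 1433 TPM). Among ratios, replicate 3 was low for Pfkfb1 over Pfkfb3 (0.850) and replicate 1 high for Pdha1 over Pdhb (0.898). Replicate 3 was low for Pdha1 over Dlat (0.902) and replicate 1 low for Tkt over Taldo1 (0.890).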

How the results depend on the processing

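No paired analysis was possible because the labels hold a single group. The number of genes above 1 TPM was 38 under each of 7 other settings at that threshold and without each library in turn, and 32 against a threshold of 10 TPM. Relative to 10 TPM the log2 levels of Pfkfb1 (-0.20), Pfkfb2 (-1.96), Pfkfb4 (-0.49), Aldoc (-0.81), Eno2 (-1.14) and Pdk2 (-2.21) lay below. Called pairs numbered 24 to 27 under the alternatives and 25 to 26 without each library in turn. The number was 24 with the expression filter, which removes Hk3 and so leaves its pairs untested. Pfkfb1 over Pfkfb4 was called there (adjusted p = 0.0414, limma). With the longest transcript as length, 2 ratios reversed: Hk1 over Hk2 (log2 0.34) and Pdha1 over Pdhb (0.38). With CPM, not divided by length, which mixes gene length into the comparison, Pdha1 over Pdhb (1.30), Pdhb over Dlat (-0.28) and Pdk1 over Pdk3 (0.99) reversed, and Hk1 over Hk2 was no longer called (-0.03). The members' share of all TPM was 2.48% with the longest transcripts and 1.81% over nuclear protein-coding genes alone, against 1.69%, and 1.69% to 1.70% without each library in turn. The other lists gave 27 genes above 1 TPM under each alternative run. No member was called variable under 6 alternatives, by edgeR with DESeq2 size factors or without each library among them. Of 108 step totals under alternatives 36 moved by more than 1 SD. Depth limits statements on Hk3, Pdk4 and genes with a few counts.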
